A study of Homo sapiens with 4 samples.

Results

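Microtubules are described here through 35 genes of the human erythroleukaemia line HEL: 17 tubulins, 4 stathmins, 7 structural microtubule-associated proteins (MAPs), 3 end-binding proteins and 4 regulators of microtubule growth or tubulin tyrosination. The genes were taken by symbol from the deposited table of 28103 genes, and all 35 were present. Of these, 31 passed the filter on low counts, among 13572 tested genes. Poly(A) RNA was sequenced from 2 libraries labelled Ctrl, with a wild-type genotype, and 2 labelled AFF4 knockdown. All 4 came from the same established line, grown in RPMI with serum. The cell type label is erythroblast, and how AFF4 was knocked down was not given in the sources used here. Nothing in the labels says that replicates are separate cultures. The p-values therefore reflect spread among 4 libraries that could be purely technical. The question was what reduced AFF4, a scaffold of the super elongation complex that promotes release of paused RNA polymerase II, does to transcript levels.

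Microtubules are polymers of alpha- and beta-tubulin dimers. Gamma-tubulin starts new polymers, and delta- and epsilon-tubulin serve centrioles. Stathmins bind free dimers and favour disassembly, structural MAPs bind along the polymer and stabilize it, and end-binding proteins ride on the growing tip and recruit partners such as the CLASP proteins. In the blood lineages that HEL resembles, TUBB1 is the beta-tubulin of the platelet marginal band, while STMN2, MAP2 and MAPT are best known from neurons.

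The knockdown label was checked first. AFF4 counts were 1650 (Ctrl 1), 1033 (Ctrl 2), 338 (knockdown 1) and 319 (knockdown 2), and its log2 fold change was -2.07 ± 0.19 (SE; edgeR adjusted p = 0.0268), or adjusted p = 0.0552 when only genes reaching 5 CPM in 2 or more libraries were tested. Total counts ran from 14903878 to 19129008 per library. All 16 erythroid and megakaryocytic markers checked were detected, and 1 of them, HBG1, was called lower. Of 12 neuronal markers, 8 were at 0 in all 4 libraries, and the 12 together summed to between 0.870 and 1.499 CPM (counts scaled by library size and TMM factor) in a library. The 3 fibroblast markers summed to at most 0.201 CPM, and the 3 epithelial markers, mostly KRT8 and KRT18, to between 43.8 and 66.5 CPM. The 7 markers of other blood cells, mostly LYZ, summed to between 50.3 and 60.9 CPM. Their part in the results was not tested. The Ctrl libraries stood apart from each other, with a chi-square of 43.6 per degree of freedom over the tested genes, against 2.49 for the knockdown pair. Across the tested genes that difference followed GC content: Spearman's rho between the log2 difference of Ctrl 2 from Ctrl 1 and transcript GC content was 0.82 (13217 genes, a description across genes of 2 libraries). For the difference of knockdown 2 from knockdown 1 the same rho was 0.41.

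**Figure D1:**
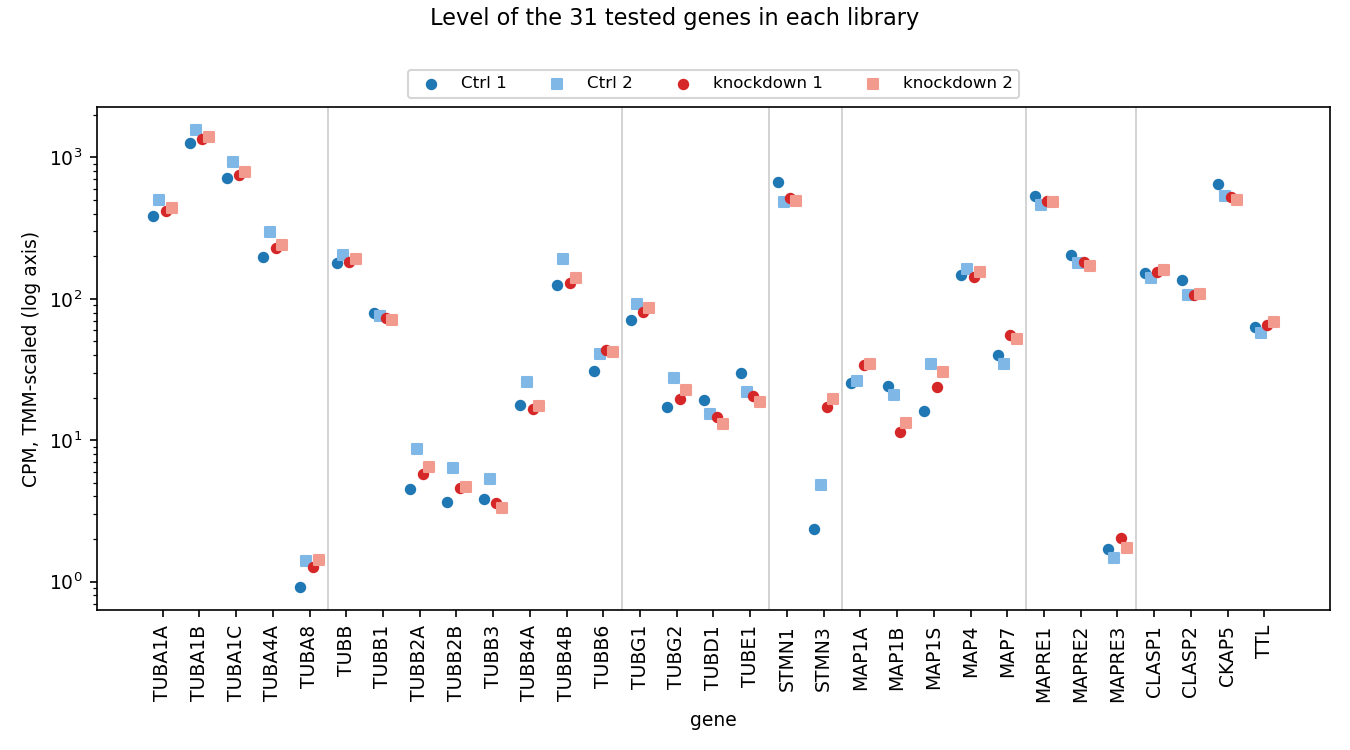
Level of each of the 31 tested genes in each library, in TMM-scaled CPM on a log axis, with gene classes divided by grey lines. The genes span from TUBA8 and MAPRE3 near 1 CPM to TUBA1B between 1267 and 1576.5 CPM, and STMN3 is the gene whose 2 knockdown points lie farthest above its 2 Ctrl points.

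STMN3 rose in the knockdown and was the 1 member of 31 that passed the test, as a rise (edgeR quasi-likelihood test, Benjamini-Hochberg adjusted p under 0.05 over all tested genes). Over all tested genes 0.346% passed as rises and 0.295% as falls. STMN3 encodes stathmin-3, also called SCLIP, a tubulin-binding phosphoprotein studied mostly in neurons. The deposited table held 44 (Ctrl 1), 72 (Ctrl 2), 312 (knockdown 1) and 329 (knockdown 2) reads for it, or 2.36, 4.82, 17.2 and 19.5 CPM. Both knockdown libraries lay above both Ctrl libraries. The means were 3.59 ± 1.74 and 18.4 ± 1.62 CPM (SD, n = 2 each), and the log2 fold change was 2.38 ± 0.33 (SE; edgeR adjusted p = 0.0394), a 5.19-fold rise. In RNA from bulk cells, more RNA per cell and more cells with that RNA cannot be told apart. The Ctrl libraries themselves differed by 0.90 on the log2 scale for this gene (with 0.5 CPM added to each value, which narrows the gap), which is smaller than the change. The log2 fold change was 1.93 without Ctrl 1 and 2.96 without Ctrl 2. When only genes reaching 5 CPM in 2 or more libraries were tested, it was 2.33 and the call was lost (edgeR adjusted p = 0.0797). Of the 14 alternatives, the others that used all 4 libraries kept the call, with an edgeR adjusted p from 7.15e-27 to 0.0487 at the ends. The lowest came with the replicate number as a block and a trend with GC content removed, by which 39.9% of all genes passed.

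Because STMN3 was the gene that passed, the 250 bases before its RefSeq start are shown, 5′ to 3′ on the minus strand, chr20:63652767-63653016 (GRCh38.p14). Capitals mark the GC boxes, the letters GGGCGG on either strand.

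STMN3: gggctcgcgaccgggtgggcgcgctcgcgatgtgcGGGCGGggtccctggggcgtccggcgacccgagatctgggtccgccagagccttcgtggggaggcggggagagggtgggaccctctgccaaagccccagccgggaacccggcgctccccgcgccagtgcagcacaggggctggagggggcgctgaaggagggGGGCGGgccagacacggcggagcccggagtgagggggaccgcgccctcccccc

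The window is 78.0% G or C, holds 28 CpG dinucleotides and has 2 GC boxes, which start 215 and 53 bases before the start. Searched on both strands, it holds no TATAAA, the core element bound by TBP, and no CCAAT, the motif of NF-Y. It also holds no AGATAA, the motif of the GATA factors of blood, and no TGACTCA, the AP-1 motif. Of 35116 RefSeq promoters cut to the same length, 42.6% hold a GC box, 10.7% TATAAA, 32.0% CCAAT, 9.17% AGATAA and 4.2% TGACTCA. These matches are letters in a window and not measured binding sites. The start used by RefSeq lies 4916 bases inside the GENCODE v29 gene (chr20, 63639705 to 63657682), and the counts do not tell transcripts from different starts apart.

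No annotated exon of another gene overlaps those of STMN3 in GENCODE v29. The nearest tested gene is RTEL1, a divergent DNA helicase gene on the opposite strand, with 127 bases between the 2 gene spans. The value for RTEL1 was 0.42 ± 0.46 on the log2 scale (SE; edgeR adjusted p = 0.764). Within 100 kb of STMN3, 9 other genes were tested and 0 passed (1, HELZ2, was lower with an unadjusted p under 0.05), with log2 fold changes from -1.87 to 0.42.

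The other stathmins lay at the ends of the range. STMN1, the widely expressed oncoprotein 18 whose phosphorylation in mitosis frees tubulin dimers, had 676, 487, 521 and 493 CPM in Ctrl 1, Ctrl 2, knockdown 1 and knockdown 2. Its knockdown values lay between those of Ctrl 2 and Ctrl 1, and its log2 fold change of -0.20 ± 0.18 (SE) did not pass (edgeR adjusted p = 0.690). STMN2 had 0 counts in every library, which allows at most 0.161 to 0.201 CPM (3 counts per library, counting error only). STMN4 had 1 count in knockdown 1 and 0 elsewhere. Per length, in TPM (counts divided by GENCODE exonic length and scaled to the same sum in each library), STMN3 stayed the minor stathmin. Its share of the STMN1 and STMN3 total was 0.714% and 2.00% in Ctrl against 6.40% and 7.57% in the knockdown.

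Among the structural MAPs no gene passed the test, and 3 of the 5 tested had an unadjusted p under 0.05, with MAP1B lower and MAP1A and MAP7 higher in the knockdown. These and STMN3 were the members with such a p, 3 higher and 1 lower of 31. In all tested genes 6.79% were higher and 8.19% lower by that measure. MAP1B, a large MAP of growing neurites whose precursor is cut into heavy and light chains, had 24.0 and 20.9 CPM in the Ctrl libraries against 11.5 and 13.2 CPM with the knockdown. The groups did not overlap, and the log2 fold change was -0.87 ± 0.20 (SE; edgeR adjusted p = 0.108). DESeq2, in which 3.02% of genes passed, put MAP1B past the threshold (adjusted p = 0.0254). So did edgeR with no filter (3.89% of genes passed), with the replicate number as a block (6.54%), and with a trend with GC content removed from each library (29.3%, or 39.9% with the block). The other scalings, the filter at 5 CPM and limma-voom did not, with an adjusted p of up to 0.114 (edgeR, library-size scaling).

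MAP1A, a paralog of MAP1B found in mature neurons, was at 25.3 and 26.4 CPM in Ctrl and 34.0 and 34.3 CPM in the knockdown. Its log2 fold change was 0.40 ± 0.17 (SE; edgeR adjusted p = 0.327), opposite in sign to that of MAP1B. MAP7, also called ensconsin, which recruits and activates kinesin-1 on the microtubule, was at 39.9 and 34.6 CPM in Ctrl and 55.4 and 52.1 CPM in the knockdown. The groups did not overlap for either gene. For MAP7 the log2 fold change was 0.53 ± 0.17 (SE; edgeR adjusted p = 0.217). Across the 14 alternatives MAP1A stayed between 0.37 and 0.44 and MAP7 between 0.43 and 0.64. Among alternatives that kept all 4 libraries, both genes passed only where a trend with GC content was removed from each library. By those fits 29.3% of all genes passed, or 39.9% with the replicate number as a block.

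The remaining MAPs did not separate the groups. MAP4, the most abundant of the class and its main non-neuronal member, had 148, 164, 142 and 154 CPM in Ctrl 1, Ctrl 2, knockdown 1 and knockdown 2 (log2 fold change -0.07 ± 0.14, SE). MAP1S, which links microtubules to autophagy and mitochondria, had 16.2 and 34.9 CPM in the Ctrl libraries and 23.9 and 30.3 CPM in the knockdown. That difference between the Ctrl libraries, 1.08 on the log2 scale, was the widest of any tested member. MAP2 had 2 or 3 counts in each library, and MAPT, which encodes tau, had 1 count in Ctrl 1 and 0 elsewhere. Neither was tested.

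**Figure D2:**
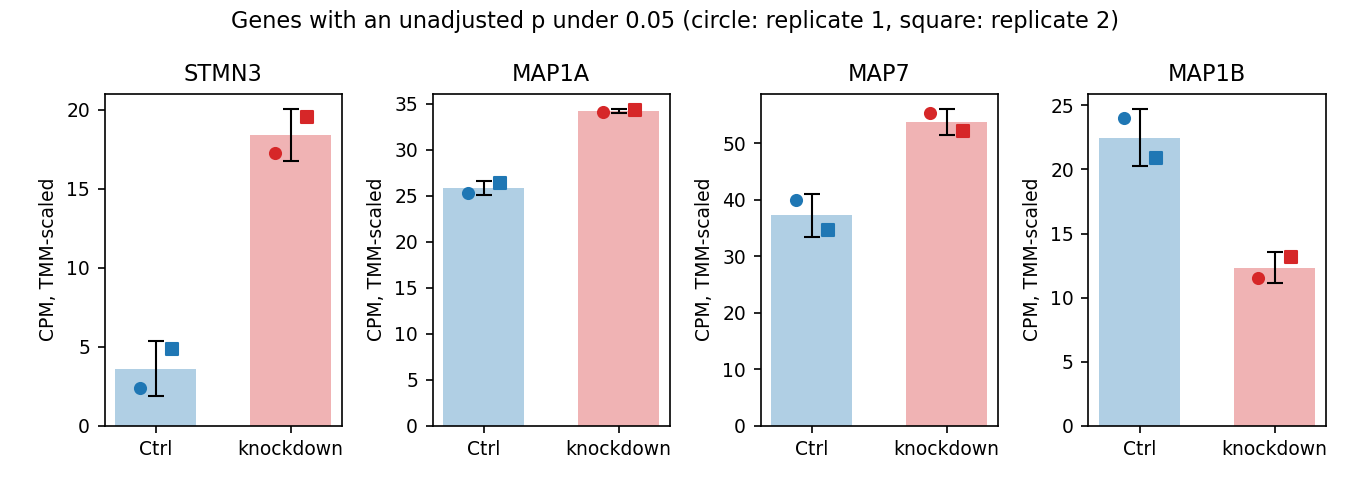
CPM (vertical axes, each from 0) of the 4 genes with an unadjusted p under 0.05, by group. Bars are means, error bars the SD of 2 libraries, circles replicate 1 and squares replicate 2. In each panel both knockdown points lie on the same side of both Ctrl points, and STMN3 has the widest gap, from 4.82 to 17.2 CPM.

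The 5 alpha-tubulins were all tested, and none passed. Their summed level was 2571 and 3298 CPM in Ctrl 1 and Ctrl 2 and 2753 and 2851 CPM in knockdown 1 and 2, so both knockdown libraries lay between the Ctrl libraries. TUBA1B, the most abundant member of all, had 1267, 1576.5, 1349 and 1385 CPM in the same order (log2 fold change -0.06 ± 0.14, SE; edgeR adjusted p = 0.911). The other alpha-tubulins ran from -0.09 for TUBA1C to 0.24 for TUBA8, which had only 17 to 24 counts per library. TUBA1A, TUBA1B, TUBA1C and TUBA4A each had both knockdown values between the Ctrl values.

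The make-up of the alpha pool differed little between libraries. Per length, TUBA1B made 52.8% and 51.3% of alpha-tubulin TPM in Ctrl against 52.5% and 52.0% in the knockdown. TUBA1C held between 22.8% and 23.2%, TUBA1A between 16.7% and 17.2%, and TUBA4A between 7.23% and 8.47%. TUBA1A, TUBA1B and TUBA1C are near-identical copies that lie together on chromosome 12 (TUBA1B at 49127782 to 49131397, minus strand), so how the authors' counting split reads among them is uncertain. TUBA1A and TUBA1C also overlap by 490 exonic bases on opposite strands, and the strand setting, too, was not given in the sources used here. Exons of TUBA1B overlap an antisense gene over 1309 bases (36.6% of its exonic length), and those of TUBA8 overlap PEX26 on the same strand (37.1%). The summed level does not depend on how reads were split within the family, though it would on reads left out.

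The beta-tubulins had no call in 8 tested, and 7 had a negative log2 fold change. Their sum was 445 and 559 CPM in Ctrl and 460.2 and 474 CPM in the knockdown. TUBB4B and TUBB were the main isotypes. Per length TUBB4B held 38.8% and 45.2% of beta-tubulin TPM in Ctrl against 38.6% and 40.1% in the knockdown, and TUBB held 34.8%, 30.7%, 34.5% and 34.3% in Ctrl 1, Ctrl 2, knockdown 1 and knockdown 2. In CPM, TUBB4B had 126 and 190.2 in Ctrl against 129 and 139 in the knockdown (log2 fold change -0.23 ± 0.21, SE).

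TUBB1, the platelet isotype, was at 79.5 and 75.8 CPM in Ctrl and 73.6 and 70.9 CPM in the knockdown. The groups did not overlap, but the log2 fold change of -0.10 ± 0.15 (SE) did not pass (edgeR adjusted p = 0.835). Exons of TUBB1 overlap those of ATP5F1E, on the opposite strand, over 1188 bases (34.0% of its exonic length), so without the strand setting the origin of those reads is uncertain. It made between 10.9% and 14.8% of beta-tubulin TPM.

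TUBB6, a broadly expressed isotype, was the beta-tubulin with a positive log2 fold change, 0.26 ± 0.20 (SE; edgeR adjusted p = 0.619). It had 30.7 and 41.0 CPM in Ctrl and 43.6 and 42.3 CPM in the knockdown, so the groups did not overlap, but Ctrl 2 lay nearer to the knockdown than to Ctrl 1. As a share of beta-tubulin TPM it was 4.87% and 4.996% in Ctrl against 6.69% and 6.24% in the knockdown. Exons of TUBB6 overlap those of AFG3L2, on the opposite strand, over 837 bases (20.3% of its exonic length). Without the strand setting the origin of those reads is uncertain. TUBB3 and TUBB4A, isotypes best known from neurons, had log2 fold changes of -0.40 ± 0.26 and -0.36 ± 0.23 (SE). TUBB3 had 3.86, 5.36, 3.59 and 3.33 CPM in Ctrl 1, Ctrl 2, knockdown 1 and knockdown 2, and TUBB4A 17.8, 25.8, 16.6 and 17.3 CPM. The groups did not overlap for either gene, though Ctrl 1 lay close to the knockdown libraries. TUBB3 shares 35.8% of its exonic length with another gene on the same strand. TUBB2A and TUBB2B, neighbouring near-identical copies on chromosome 6, were between 3.64 and 8.64 CPM in every library.

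**Figure D3:**
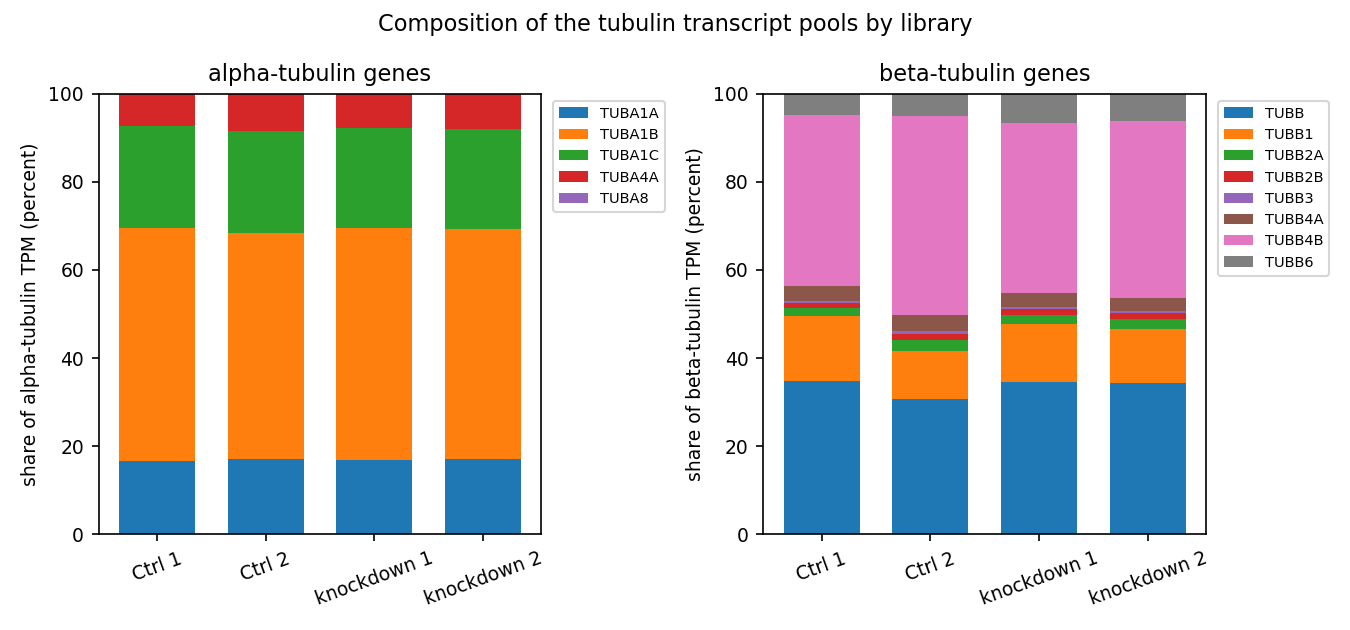
Share of each gene in the summed TPM of the 5 alpha-tubulin genes (left) and the 8 beta-tubulin genes (right), in percent, by library. The alpha bars are nearly alike, while in the beta bars TUBB4B is widest in Ctrl 2 (45.2%) and TUBB6 takes 4.87% and 4.996% in Ctrl against 6.69% and 6.24% in the knockdown.

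Of the tubulins outside the dimer, none passed among 4 tested. The nucleating TUBG1 had 71.3 and 91.8 CPM in Ctrl and 80.9 and 86.4 CPM in the knockdown, and TUBG2, its close paralog on chromosome 17, 17.1 and 27.6 CPM against 19.7 and 22.7 CPM. Both had the knockdown libraries between the Ctrl libraries. Epsilon-tubulin, TUBE1, had 29.7 and 22.1 CPM in Ctrl and 20.7 and 18.5 CPM in the knockdown, and delta-tubulin, TUBD1, had 19.1 and 15.4 against 14.7 and 12.9 CPM. Their groups did not overlap, though for both genes Ctrl 2 lay nearer to the knockdown than to Ctrl 1. The log2 fold changes of TUBE1 and TUBD1 were -0.40 ± 0.21 and -0.32 ± 0.21 (SE), with edgeR adjusted p = 0.444 and 0.539. They were -0.17 and -0.15 without Ctrl 1, and -0.60 and -0.47 without Ctrl 2.

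The end-binding and growth-regulating genes were at 57.8 CPM or more in every library except for MAPRE3, and none of the 7 tested passed. MAPRE1, which encodes EB1 and marks the growing tip, was at 535 and 458 CPM in Ctrl and 494 and 483 CPM in the knockdown (log2 fold change -0.02 ± 0.14, SE; positive, 0.01, with library-size scaling). CKAP5, or chTOG, a polymerase that adds dimers at the tip, was at 654 and 535 CPM in Ctrl and 522 and 504 CPM in the knockdown, -0.21 ± 0.14 (SE). The groups did not overlap for CKAP5, though Ctrl 2 lay nearer to the knockdown than to Ctrl 1. CLASP1 and CLASP2, which rescue shrinking microtubules, had 0.10 ± 0.14 and -0.18 ± 0.17 (SE). TTL, the ligase that restores the terminal tyrosine of alpha-tubulin, was at 63.2 and 57.8 CPM in Ctrl and 65.8 and 68.7 CPM in the knockdown, 0.15 ± 0.16 (SE). MAPRE2 had -0.12 ± 0.14 (SE), and MAPRE3 had only 22 to 37 counts per library.

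STMN1 and CKAP5 belong to genes that dividing cells use. A list of 20 mitotic genes measured beside them had 20 negative log2 fold changes with a median of -0.54, ranging from -1.12 to -0.32. By edgeR 0 passed, and 18 were lower with an unadjusted p under 0.05, against 8.19% of all tested genes. As lower, 5 passed in DESeq2, against 1.64% of all genes, and all 20 passed, against 14.6% of genes, with the GC correction (a trend with GC content removed from each library). The median difference of Ctrl 2 from Ctrl 1 for the same list was -0.34. The list was chosen with earlier results of these data known, so its counts beside those shares are only a description. The part of these genes in the values of STMN1 and CKAP5 was not tested.

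Taken as a list, the 31 tested members had a median log2 fold change of -0.08, against -0.01 over all tested genes. Of the 31, 23 had a log2 fold change under 0.3 in size. Knockdown and Ctrl did not overlap for 7 higher and 7 lower members, and in all tested genes for 23.1% higher and 23.0% lower. A size of at least 0.5 was reached by 3 members (9.68%), STMN3, MAP1B and MAP7, and by 17.3% of all tested genes. The members' numbers of non-overlapping genes thus lay close to those of all tested genes.

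The difference between the 2 Ctrl libraries was larger than the fold change for 23 of 31 members (74.2%), and for 62.7% of all tested genes. Of the 13 alpha- and beta-tubulins 12 were higher in Ctrl 2, TUBB1 being the exception, whereas the 7 end-binding and growth-regulating genes were all lower in Ctrl 2. The members' GC content ran alongside: over the 31 members Pearson's r between the Ctrl difference and transcript GC content was 0.91 and Spearman's rho 0.91, given as a description, since the points share the same 2 libraries. STMN1 (39.3% GC) and TUBE1 (34.2%) were among the lowest in Ctrl 2 relative to Ctrl 1, and MAP1S (68.1%) and STMN3 (63.5%) were the highest. The members' log2 fold change had a rho of 0.25 with GC content, against -0.0 over 13217 tested genes.

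**Figure D4:**
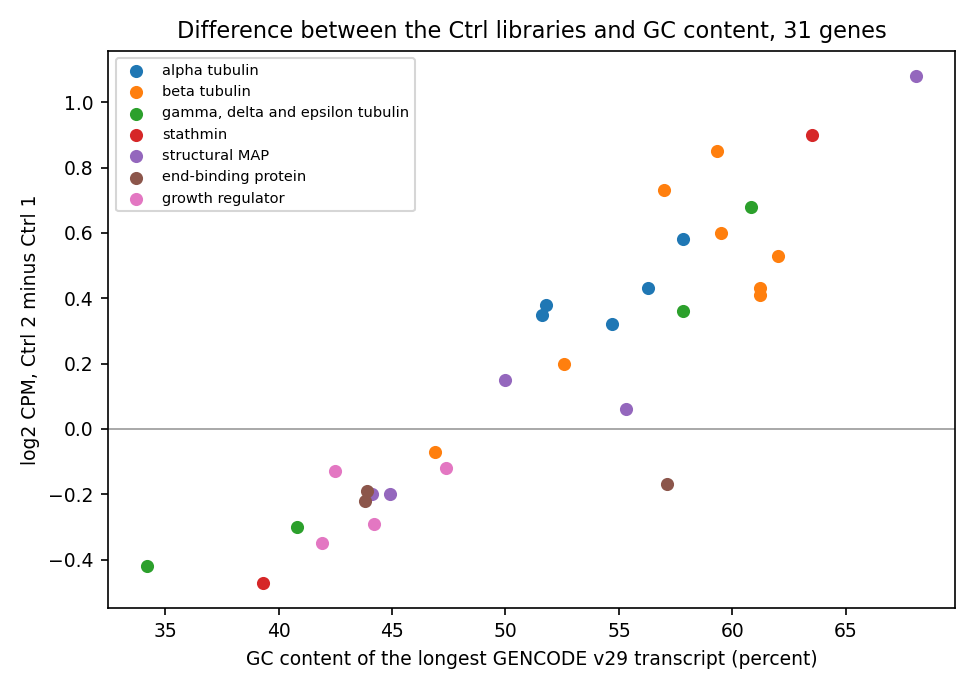
Log2 difference of Ctrl 2 from Ctrl 1 (vertical axis) against GC content of the longest transcript in percent (horizontal axis) for the 31 tested genes, coloured by class. Points climb from TUBE1 and STMN1 at the lower left to STMN3 and MAP1S at the upper right (Pearson's r 0.91).

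Removing a trend with GC content from each library narrowed the spread, and 29.3% of genes then passed, 14.7% higher and 14.6% lower. By that fit 3 members were higher, STMN3 (2.44), MAP7 (0.53) and MAP1A (0.39), and 5 were lower, MAP1B (-0.87), TUBE1 (-0.34), TUBB4A (-0.33), CKAP5 (-0.21) and TUBB4B (-0.20). The 8 called are 25.8% of the 31 members. Which members passed depended in part on which Ctrl library was left out. Without Ctrl 1, 5 were higher and 11 lower, with 21.5% and 22.5% of all genes passing (44.0% together). Without Ctrl 2, 9 were higher and 7 lower, with 24.5% and 23.9% passing (48.4% together). In DESeq2 the 2 members that passed were STMN3 and MAP1B, with 1.39% of all genes higher and 1.64% lower. STMN3, MAP7, MAP1A and MAP1B kept their direction in all 14 alternatives. That was not particular to them: TUBE1 (-0.60 to -0.17) and TUBB6 (0.07 to 0.48), among others, also kept theirs. With 1 library left out, 16 of the 31 members changed sign. Among them, TUBA1A had -0.23 without Ctrl 1 and 0.15 without Ctrl 2. In the same order TUBA4A had -0.34 and 0.24, TUBG2 -0.38 and 0.31, and MAP1S -0.36 and 0.74.

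**Figure D5:**
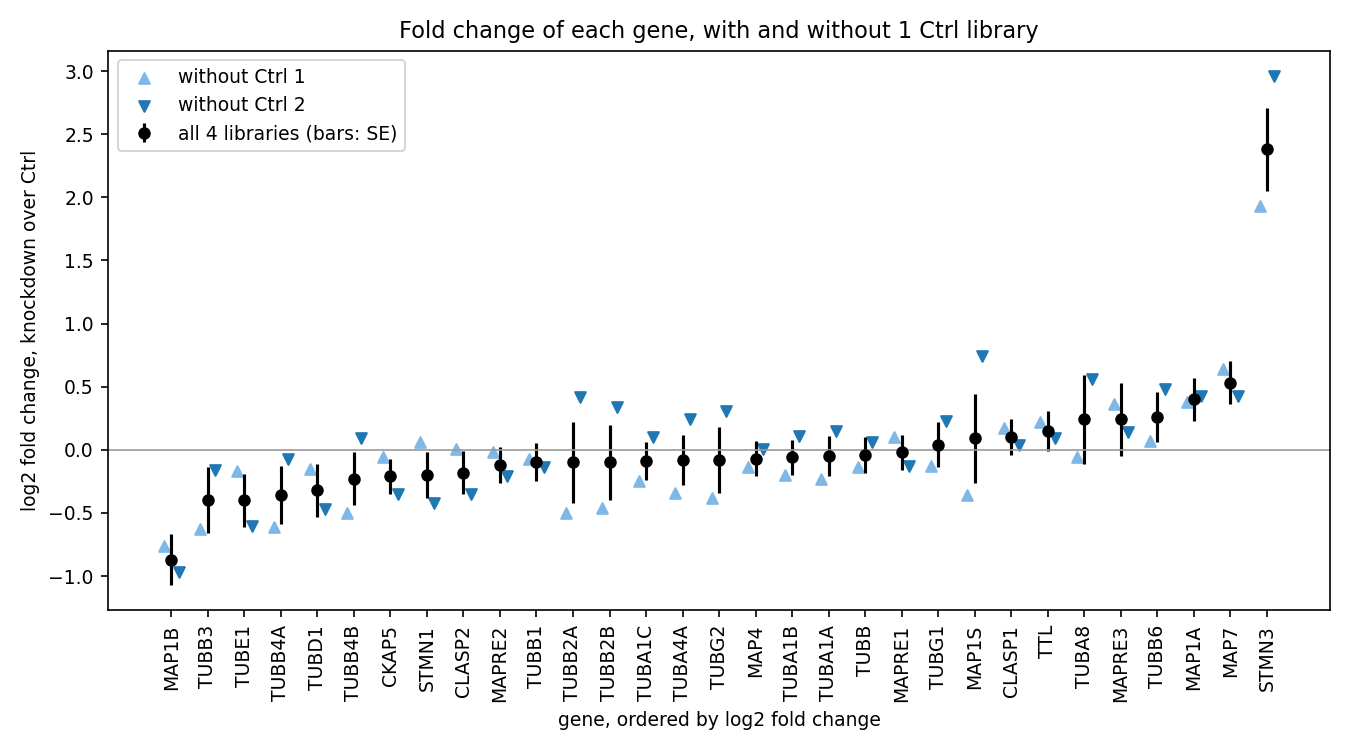
Log2 fold change of knockdown over Ctrl (vertical axis) for the 31 tested genes in order of size, from all 4 libraries with SE bars (black) and without Ctrl 1 or Ctrl 2 (blue triangles). STMN3 lies between 1.93 and 2.96 and MAP1B between -0.97 and -0.76 in these fits, while for genes such as TUBA4A (-0.34 and 0.24) the 2 triangles fall on opposite sides of 0.

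Genes that act on microtubules outside the members were read from 5 lists. Among 46 other MAPs and tip or end proteins, 32 were tested and 1 passed, as a fall: CLIP1, or CLIP-170, a protein that follows growing plus ends together with EB1. For CLIP1 the table held 543 and 378 reads (Ctrl) against 174 and 145 (knockdown), or 29.1, 25.3, 9.62 and 8.61 CPM. The groups did not overlap, and the log2 fold change was -1.58 ± 0.20 (SE; edgeR adjusted p = 0.0362). Its call was lost with the filter at 5 CPM (adjusted p = 0.0573) and without knockdown 1 (0.142) or knockdown 2 (0.297), with a log2 fold change from -1.67 to -1.47 over the 14 alternatives. Of that list 2 genes had an unadjusted p under 0.05 as higher and 11 as lower, and the median was -0.24. Over all tested genes 6.79% were higher and 8.19% lower by that measure, shares that apply to the lists below too. With the GC correction 5 passed as higher and 14 as lower, against 14.7% and 14.6% of genes. In DESeq2 0 passed as higher and 2 as lower, against 1.39% and 1.64%. The list includes genes of the mitotic spindle, such as SPAG5, and their part in these counts was not tested. MAP10, a spindle MAP, was at 0.91 and 0.803 CPM in Ctrl and 2.21 and 2.14 CPM in the knockdown (1.33 ± 0.30, SE; edgeR adjusted p = 0.105), and SPAG5, or astrin, of the mitotic spindle, had -0.63 ± 0.13 (SE; edgeR adjusted p = 0.0936).

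The enzymes that modify tubulin had 24 of 26 symbols in the table and 18 tested, with a median of -0.01. In the main edgeR test 0 passed, with an unadjusted p under 0.05 for 1 higher and 2 lower. In DESeq2 1 passed as lower, against 1.64% of all genes. With the GC correction 2 passed as higher and 3 as lower, against 14.7% and 14.6% of all genes. VASH1, a carboxypeptidase that removes the tyrosine TTL adds, had 88.3 and 124 CPM in Ctrl and 58.3 and 62.4 CPM in the knockdown, -0.81 ± 0.20 (SE; edgeR adjusted p = 0.121). TTLL1, a polyglutamylase subunit, had -0.91 ± 0.27 and TTLL11 0.78 ± 0.31 (SE), both under 4 CPM.

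Folding, nucleation and severing genes gave 0 calls in the main edgeR test and 0 in DESeq2. With the GC correction 14.7% of all genes passed as higher and 14.6% as lower. By that fit 3 folding genes were higher and 0 lower, 2 nucleation genes higher and 5 lower, and 2 severing genes higher and 1 lower. All 22 folding genes were tested, the chaperonin, prefoldin and tubulin cofactors, with a median of 0.11 and 17 positive (1 higher at an unadjusted p under 0.05). Among them PFDN5, a prefoldin subunit, had 0.33 ± 0.14 (SE). The median of the folding list was 0.24 without Ctrl 1 and -0.04 without Ctrl 2. The 21 genes of the gamma-tubulin ring complex and augmin had a median of -0.07, and an unadjusted p under 0.05 was reached by 1 as higher and 4 as lower. NEDD1, which brings the ring complex to the centrosome, had 90.4 and 66.5 CPM in Ctrl and 49.5 and 49.2 CPM in the knockdown, -0.67 ± 0.19 (SE; edgeR adjusted p = 0.174), and the augmin subunit HAUS4 had -0.56 ± 0.16 (SE). The 7 severing genes tested of 9 had a median of 0.03 (0 at an unadjusted p under 0.05), with SPAST, or spastin, at -0.33 ± 0.19 (SE).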

How the data were processed

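The authors deposited raw read counts, whole numbers per gene symbol. The submitters' processing notes name featureCounts 1.6.1, HISAT2 2.1.0, fastp 0.13.1 and build hg38, with no role or order. Annotation, strandedness and handling of multi-mappers: not given in the sources used here. Per the labels' protocols, libraries were oligo(dT)-selected, marked for strand with dUTP and amplified by PCR, and molecular identifiers are not mentioned.

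The test was that of edgeR 4.0.16 (R 4.3.3): filterByExpr (minimum count 10, minimum total 15), TMM scaling, and a quasi-likelihood F test of group over all 4 libraries, with Benjamini-Hochberg adjustment over 13572 genes. An adjusted p below 0.05 made a call. TMM treats most genes as unchanged, so changes are relative to the other genes. SE is the absolute log2 fold change over the square root of F. Differences between the Ctrl libraries were taken on log2 CPM with 0.5 CPM added, which narrows them for genes of low level. TPM, positions and GC content used GENCODE v29 (GRCh38); 97.4% of tested genes matched. Promoters came from RefSeq (GRCh38.p14), which held 32 of the 35 members.

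Alternatives were 3 other scalings, 2 other filters, DESeq2 1.42.0, limma-voom (limma 3.58.1), the replicate number as a block, a GC correction (lowess, span 0.4, as an offset) with and without the block, and each library left out. On simulated data for 13572 genes with 100 changed 2-fold and 100 changed 4-fold, 58% and 93% were recovered and 2 unchanged genes were called. The simulation gave every gene and both groups the same spread (biological coefficient of variation 0.153) and no trend with GC content. The Ctrl pair here had a wider spread, and both pairs had such a trend (rho 0.82 in Ctrl and 0.41 in the knockdown). These rates therefore do not carry over to these libraries.

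Members and lists were chosen with earlier results of these data known. Full values are given for members with an unadjusted p under 0.05 and for the most abundant of each class, and pathway lists by called genes and up to 3 of smallest p.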

Additional observations from a re-analysis of the deposited data

How the results depend on the processing

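STMN3 was higher in all 14 alternatives and called in 13. Over all genes, calls were 328 higher and 406 lower with no filter, 1 and 4 with at least 5 CPM in at least 2 libraries, 188 and 222 in DESeq2, 1940 and 1930 with the GC correction, and between 35 and 3407 higher and 11 and 3315 lower with 1 library left out, fewest without a knockdown library and most without a Ctrl library. Member calls were 0 higher with the 5 CPM filter, 3 higher and 5 lower with the GC correction, 1 lower (MAP1B) with no filter or in DESeq2, and from 1 to 9 higher and 0 to 11 lower with 1 library left out. With the 5 CPM filter AFF4 had -2.10 (adjusted p = 0.0552).

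The replicate number as a block gave 408 higher (3.01%) and 480 lower (3.54%) calls over all genes and 1 lower member (MAP1B). Block with GC correction gave 2663 (20.1%) and 2609 (19.7%), with 4 members higher and 8 lower of 31. Same-numbered libraries shared only a number in the labels (correlation of their deviations 0.285).

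Signs changed for TUBG1 with the 5 CPM filter (-0.0012) and MAPRE1 with library-size scaling (0.01). With 1 library left out, 16 of 31 members changed sign: TUBA1A ran from -0.23 to 0.15, TUBA1B from -0.20 to 0.11, TUBA1C from -0.25 to 0.10, TUBA4A from -0.34 to 0.24, TUBA8 from -0.06 to 0.56, TUBB from -0.14 to 0.06, TUBB2A from -0.50 to 0.42, TUBB2B from -0.46 to 0.34, TUBB4B from -0.50 to 0.09, TUBG1 from -0.13 to 0.23, TUBG2 from -0.38 to 0.31, STMN1 from -0.42 to 0.06, MAP1S from -0.36 to 0.74, MAP4 from -0.14 to 0.02, MAPRE1 from -0.13 to 0.10 and CLASP2 from -0.35 to 0.01. The cause was not tested. With 1 library left in a group, its spread was taken from the other group. Genes under about 5 CPM rest on few counts.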
